A study of Mus musculus with 6 samples.

Results

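Telomeres, the repeated DNA at chromosome ends, are covered by the shelterin complex and lengthened by telomerase. The 9 genes described here are the 7 mouse shelterin genes (*Terf1*, *Terf2*, *Terf2ip*, *Tinf2*, *Acd*, *Pot1a* and *Pot1b*) and 2 genes of telomerase, *Tert* and *Dkc1*. They were chosen by symbol from the 55401 gene identifiers of the count tables, and all 9 were found and passed the expression filter. In shelterin, the TRF1 and TRF2 proteins (*Terf1*, *Terf2*) bind the double-stranded repeat, TIN2 (*Tinf2*) bridges them, RAP1 (*Terf2ip*) sits on TRF2, and TPP1 (*Acd*) carries POT1 onto the single-stranded overhang. Telomerase copies the repeat with the reverse transcriptase TERT from the RNA template *Terc*, which dyskerin (*Dkc1*) stabilizes. Tumors that lack ATRX often maintain telomeres without telomerase, by recombination, so the transcripts of both machineries were compared in bone of mice with and without *Atrx* in the bone-forming lineage.

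RNA of whole tibias came from 3 Atrx-cKO mice (genotype Osterix-Cre; Atrxf/y) and 3 control mice (Atrxf/y), males of 8 weeks of age. Both groups carried the floxed *Atrx* allele on their only X chromosome. The Atrx-cKO mice alone carried the *Osterix-Cre* transgene, in which a doxycycline-repressed activator under the *Sp7* (*Osterix*) promoter drives a GFP-Cre fusion in preosteoblasts, and doxycycline was given until 3 weeks of age. No library carried the transgene with intact *Atrx*, so an effect of the transgene and of the deletion cannot be told apart. The labels do not say whether the mice of a group were littermates. The p-values set each genotype difference against the spread between these mice, estimated with information from all genes tested.

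Each library held 50977777 to 70571655 reads on genes. The whole-gene count of *Atrx* did not separate the groups, at 163 ± 9.54 CPM (the count of a gene scaled by TMM to a common library total; SD, n = 3) in Atrx-cKO and 169 ± 4.98 CPM (SD, n = 3) in control tibias, so this count, taken over the whole gene and all cells of the tibia, gives no check of the genotypes. Markers of bone and marrow were present in every library, with summed levels of 109113 to 185030 CPM over 10 osteoblast and osteocyte genes. The sum of 10 skeletal muscle genes was 11866 CPM in control replicate 3 and from 702 to 2397 CPM in the other 5 libraries, so values without control replicate 3 are given where the direction of a difference changes. Because the whole tibia was used, fewer cells of a type and less RNA per cell cannot be told apart.

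The DNA just upstream of 4 of the genes is shown to place them beside their levels, namely the telomerase pair, which lay far apart in expression, and the 2 *Pot1* genes, which mice have in place of the single gene of humans. Each sequence is the 250 bases before the RefSeq start (GRCm38.p6), read 5′ to 3′ on the strand of the gene. Capitals mark the searched motifs on either strand, the E-box CACGTG, the GC box GGGCGG and the TATA box TATAAA.
Tert: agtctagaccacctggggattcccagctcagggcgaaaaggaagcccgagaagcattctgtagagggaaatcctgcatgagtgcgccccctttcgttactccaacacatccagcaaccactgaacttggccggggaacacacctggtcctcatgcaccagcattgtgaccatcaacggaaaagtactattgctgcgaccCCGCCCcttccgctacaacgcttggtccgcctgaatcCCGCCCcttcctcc
Dkc1: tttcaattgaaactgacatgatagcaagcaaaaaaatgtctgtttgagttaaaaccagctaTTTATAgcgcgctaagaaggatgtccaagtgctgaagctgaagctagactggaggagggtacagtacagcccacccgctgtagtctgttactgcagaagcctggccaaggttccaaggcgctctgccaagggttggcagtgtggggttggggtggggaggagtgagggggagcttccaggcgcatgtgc
Pot1a: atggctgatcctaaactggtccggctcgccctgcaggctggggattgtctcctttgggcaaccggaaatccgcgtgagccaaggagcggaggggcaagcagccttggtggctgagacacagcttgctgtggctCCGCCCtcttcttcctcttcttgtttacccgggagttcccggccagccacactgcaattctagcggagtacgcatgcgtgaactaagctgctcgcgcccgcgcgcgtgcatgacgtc
Pot1b: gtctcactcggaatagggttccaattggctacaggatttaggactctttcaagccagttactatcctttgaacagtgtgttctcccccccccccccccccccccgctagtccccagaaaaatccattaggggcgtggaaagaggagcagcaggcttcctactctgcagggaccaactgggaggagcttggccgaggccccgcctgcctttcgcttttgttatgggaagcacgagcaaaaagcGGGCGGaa
These windows are chr13:73626661-73626910 on the plus strand for *Tert*, chrX:75095604-75095853 on the plus strand for *Dkc1*, chr6:25809219-25809468 on the minus strand for *Pot1a* and chr17:55712637-55712886 on the minus strand for *Pot1b*. The window of *Tert* held 2 GC boxes and those of *Pot1a* and *Pot1b* held 1 each, whereas that of *Dkc1* held 1 TATA box. The RefSeq table gave a window for 8 of the 9 genes, all but *Terf1*. The other 4 held none of the 3 motifs, and none of the 8 held the E-box. Over 32851 windows of the same length, 32.7% held a GC box, 12.4% a TATA box and 6.02% the E-box. Such matches describe the letters of the window and not sites that are used.

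The genes fell in a steep order. Compared per kilobase of annotated exon (all exons of a gene merged, GENCODE M21), *Tinf2* was highest at 10.4 ± 0.629 CPM per kb (SD, n = 6 libraries), followed by *Dkc1* at 10.03 ± 1.56. *Terf2* had 8.44 ± 0.281, *Acd* 7.54 ± 0.936, *Pot1b* 5.56 ± 0.707 and *Terf2ip* 4.98 ± 0.275 CPM per kb. *Terf1* had 3.12 ± 0.255 and *Pot1a* 2.09 ± 0.171 CPM per kb, and *Tert*, the catalytic subunit, was lowest at 0.580 ± 0.0658 CPM per kb. *Tinf2* and *Acd* share 31.2% and 33.3% of their exon bases with a gene on the opposite strand. Their levels and places in the order thus also depend on how reads in the shared stretches were counted, which is not known.

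Not every step of this order was larger than the spread between libraries. *Tinf2* exceeded *Dkc1* in 4 of 6 libraries, *Terf2* exceeded *Acd* in 5 of 6 and *Pot1b* exceeded *Terf2ip* in 3 of 6. *Dkc1* exceeded *Terf2* in 6 of 6 libraries although their ranges over the libraries overlapped. The ranges did not overlap between *Acd* and *Pot1b*, *Terf2ip* and *Terf1*, *Terf1* and *Pot1a*, or *Pot1a* and *Tert*. Merged exons run from 3625 bp for *Acd* to 8669 bp for *Pot1a*, of which the main transcript is only a part. Per kilobase of the longest principal transcript instead, a length chosen after the values were seen, the order of the means was the same, from 17.4 CPM per kb for *Tinf2* to 5.75 for *Pot1a* and 0.771 for *Tert*. On that scale the ranges of *Acd* and *Pot1b*, of *Terf2ip* and *Terf1*, and of *Terf1* and *Pot1a* overlapped. Those of *Pot1a* and *Tert* remained apart, and those of *Terf2* (13.98 to 15.3 CPM per kb) and *Acd* (7.78 to 10.5) no longer overlapped.

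**Figure D1:**
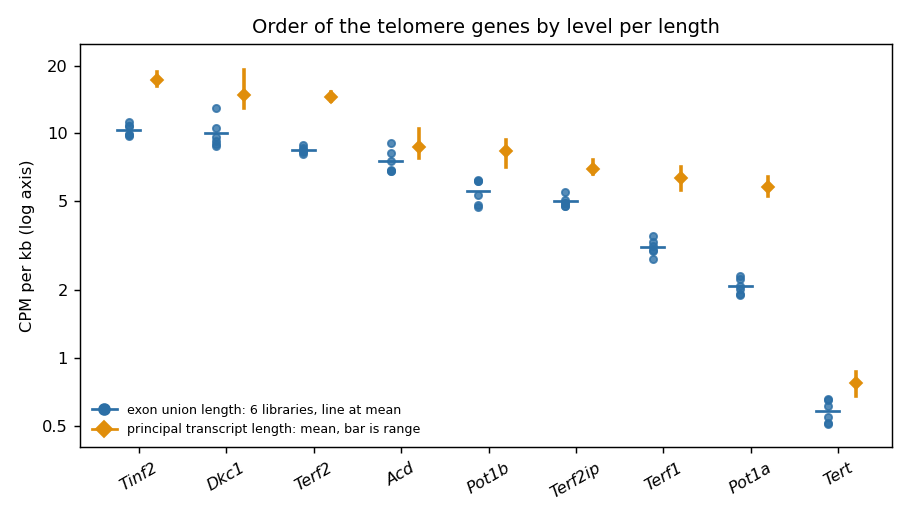
Level of the 9 genes per kilobase on a log axis, in order of the mean. Blue points are the 6 libraries over the merged exon length with a line at the mean, and orange diamonds are means over the principal transcript length with bars for the range; *Tert* lies lowest on both scales, at 0.580 and 0.771 CPM per kb.

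None of the 9 genes passed the test for a difference between genotypes, and in none did the 3 Atrx-cKO libraries lie entirely above or below the 3 controls. Over all genes tested, 0.0145% were called at an adjusted p under 0.05 (3 of 20636, by the quasi-likelihood test of edgeR, p adjusted by Benjamini-Hochberg), and in 8.31% the groups did not overlap in CPM (4.30% with Atrx-cKO above and 4.01% below). None of the 9 had an unadjusted p under 0.05, against 3.64% of all genes. The log2 fold changes of Atrx-cKO over control ran from -0.10 for *Tert* to 0.16 for *Pot1a*, with 6 above 0 and 3 below. Their median was 0.054, beside a median of 0.0050 and quartiles of -0.12 and 0.12 over all genes tested. Without control replicate 3 the median of the 9 was -0.029, and without control replicate 1 it was 0.11. The lowest unadjusted p was 0.154, for *Pot1a*, and every adjusted p was at least 0.992.

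The intervals limit what such a test could have missed in whole tibia. The widest was that of *Tert*, whose 95% interval ran from 0.694 to 1.25 times the control level, and the highest upper bound was 1.40 times, for *Dkc1*. The narrowest was that of *Terf2*, from 0.904 to 1.15 times. These intervals concern the RNA of the whole bone. A change in the *Osterix* lineage alone would be diluted by the other cells, in a proportion that the counts do not give.

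**Figure D2:**
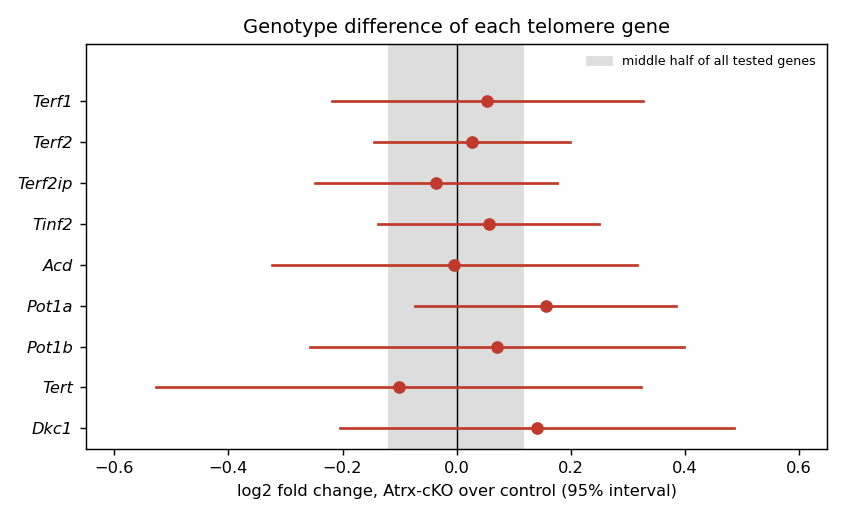
Log2 fold change of Atrx-cKO over control for each of the 9 genes with its 95% interval from edgeR (n = 3 per group). The gray band holds the middle of all tested genes, from -0.12 to 0.12; each interval includes 0, and the point of *Pot1a* lies farthest from it at 0.16.

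Of the genes for the double-strand binding proteins, *Terf2* (ENSMUSG00000031921, chromosome 8 from 107069400 to 107096547 on the minus strand of GRCm38) was the steadiest of the 9. It had 38.9, 37.8 and 40.8 CPM in Atrx-cKO replicates 1, 2 and 3 and 38.3, 37.3 and 39.7 CPM in the controls, a coefficient of variation of 3.33% over the 6 libraries. The groups were interleaved, and the log2 fold change was 0.027 (standard error, SE, 0.074; edgeR adjusted p = 0.994).

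*Terf1* (ENSMUSG00000025925, chromosome 1 from 15805646 to 15844052, plus strand), whose product restrains telomere lengthening and aids replication through the repeat, had 16.1, 13.8 and 14.0 CPM in Atrx-cKO and 15.1, 14.5 and 12.7 CPM in control tibias. Its highest value was in Atrx-cKO replicate 1 and its lowest in control replicate 3. The log2 fold change was 0.054 (SE 0.12; edgeR adjusted p = 0.994). Leaving out Atrx-cKO replicate 1 gave -0.022, and leaving out control replicate 3 gave -0.029. Per kilobase of merged exon, *Terf1* stood at 0.370 ± 0.0352 (SD, n = 6) of the level of *Terf2*, and this ratio overlapped between the groups. The ratio depends on the length used, since per kilobase of the principal transcript the means were 6.34 and 14.6 CPM per kb.

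Among the connecting subunits, *Tinf2* (ENSMUSG00000007589, chromosome 14 from 55674689 to 55681820, minus strand) had 55.3, 53.5 and 48.2 CPM in Atrx-cKO and 49.0, 53.4 and 48.5 CPM in control tibias. The lowest of the 6 values was that of Atrx-cKO replicate 3. *Acd* (ENSMUSG00000038000, chromosome 8 from 105695860 to 105701102, minus strand) had 25.004, 27.3 and 29.5 CPM in Atrx-cKO and 33.0, 24.6 and 24.5 CPM in control tibias. Control replicate 1 was the highest of all for *Acd* and the other controls were the lowest. Their log2 fold changes were 0.056 (SE 0.083) for *Tinf2* and -0.0039 (SE 0.14) for *Acd*, and without control replicate 1 that of *Acd* was 0.15.

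Both genes share exons with a gene on the opposite strand. For *Tinf2*, 31.2% of its exon bases overlap *Gmpr2*, and for *Acd*, 33.3% overlap *Carmil2*. The labels call the libraries strand specific but name a kit that in its standard form does not mark strand. Whether reads were counted by strand is not given in the sources used here. Reads in the shared stretches may thus have been counted for either gene or set aside as ambiguous. Ambiguous reads made up 0.644% to 0.701% of the totals over the 6 libraries. *Gmpr2* and *Carmil2* had log2 fold changes of 0.088 (SE 0.092) and 0.020 (SE 0.23), with unadjusted p values of 0.369 and 0.931 in edgeR. Of the other 7 genes, *Terf2ip* and *Dkc1* shared 2.18% and 1.09% of their exon bases with another gene, and the rest shared none.

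*Terf2ip* (ENSMUSG00000033430, chromosome 8 from 112011398 to 112020528, plus strand) had 24.4, 25.2 and 23.6 CPM in Atrx-cKO and 23.5, 27.2 and 24.3 CPM in control tibias. Its log2 fold change was -0.036 (SE 0.091; edgeR adjusted p = 0.994). The controls held both the highest value, in replicate 2, and the lowest, in replicate 1. Its level per kilobase of merged exon was 0.591 ± 0.0490 (SD, n = 6) of that of *Terf2*, to which its product binds, and the ratio overlapped between the groups. This ratio too depends on the length used, with means of 6.93 and 14.6 CPM per kb of the principal transcript.

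The 2 genes for the single-strand binding protein differed in level. *Pot1a* (ENSMUSG00000029676, chromosome 6 from 25743737 to 25809246, minus strand), whose product protects the overhang from the DNA damage response, had 19.6, 20.2 and 17.6 CPM in Atrx-cKO and 16.8, 16.6 and 18.1 CPM in control tibias. Atrx-cKO replicates 1 and 2 were above all controls, while Atrx-cKO replicate 3 was below control replicate 3. The means were 19.1 ± 1.37 and 17.2 ± 0.867 CPM (SD, n = 3 each), a log2 fold change of 0.16 (SE 0.098; edgeR adjusted p = 0.992).

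*Pot1b* (ENSMUSG00000024174, chromosome 17 from 55651951 to 55712628, minus strand), whose product limits resection of the end, had 25.2, 32.4 and 32.3 CPM in Atrx-cKO and 32.8, 28.0 and 24.9 CPM in control tibias. A low value near 25 CPM was found in each group, in Atrx-cKO replicate 1 and control replicate 3. The log2 fold change was 0.071 (SE 0.14; edgeR adjusted p = 0.994), and -0.032 without control replicate 3. *Pot1a* had fewer counts than *Pot1b* in every library, from 0.512 to 0.777 times as many. The ratio was from 0.311 to 0.472 per kilobase of merged exon and from 0.572 to 0.868 per kilobase of the principal transcript, below 1 on each scale. The transcripts of *Pot1a* and *Pot1b* shared 0.186% and 1.36% of their stretches of 50 bases with other genes, and neither was the gene with which the other shared most.

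The summed level of the 7 shelterin genes was 42.01, 43.2 and 42.7 CPM per kb in Atrx-cKO and 43.5, 41.6 and 39.7 CPM per kb in control tibias. The groups overlapped, with means of 42.6 ± 0.577 and 41.6 ± 1.91 CPM per kb (SD, n = 3 each). Over the 6 libraries, *Tinf2* made up 24.7% ± 1.60 of this sum, *Terf2* 20.1% ± 1.06, *Acd* 17.9% ± 1.79, *Pot1b* 13.2% ± 1.33, *Terf2ip* 11.8% ± 0.837, *Terf1* 7.41% ± 0.530 and *Pot1a* 4.97% ± 0.426 (SD, n = 6). The share of each gene overlapped between genotypes. These are shares of transcript and not of protein. They hold for the merged exon length and would differ per kilobase of the principal transcript, which for *Pot1a* is 3151 bp of 8669 bp. The SD does not cover that choice, nor how reads in the exons that *Tinf2* and *Acd* share with other genes were counted.

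*Tert* (ENSMUSG00000021611, chromosome 13 from 73626911 to 73649843, plus strand) was detected in every library. It had 172, 167 and 221 counts in Atrx-cKO and 199, 208 and 177 counts in control libraries, which are 2.94, 2.92 and 3.75 CPM and 3.49, 3.12 and 3.72 CPM. Atrx-cKO replicate 3 was the highest of all and the other Atrx-cKO libraries were the lowest. The log2 fold change was -0.10 (SE 0.18; edgeR adjusted p = 0.992). The 95% Wilson intervals of single libraries, which cover counting error only, ran from 2.55 to 3.44 CPM in Atrx-cKO replicate 1 and from 3.40 to 4.43 CPM in Atrx-cKO replicate 3, before TMM scaling. By count *Tert* ranked from 13269th to 13787th in libraries that held 27822 to 29792 genes with a count. Summed markers of stem and progenitor cells, in which *Tert* is known to be active, overlapped between the groups, from 186 to 206 CPM in Atrx-cKO and from 178 to 208 CPM in control tibias over 8 genes.

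*Dkc1* (ENSMUSG00000031403, chromosome X from 75095854 to 75109777, plus strand), which also serves the modification of ribosomal RNA, varied most among the 9, with a coefficient of variation of 15.6%. It had 53.5, 39.7 and 37.0 CPM in Atrx-cKO and 43.4, 36.3 and 38.3 CPM in control tibias. The value of Atrx-cKO replicate 1 stood above the rest, and the other Atrx-cKO libraries lay within the range of the controls. The log2 fold change of 0.14 (SE 0.15; edgeR adjusted p = 0.992) was -0.038 without that library. The level of *Dkc1* per kilobase of merged exon was from 13.7 to 25.3 times that of *Tert* within a library. The RNA template *Terc* had 0 counts in every library, which allows up to 0.0425 to 0.0588 CPM by a limit of 3 counts. *Terc* lacks a poly(A) tail in its mature form and the libraries were made from polyadenylated RNA, so its level cannot be read from them.

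**Figure D3:**
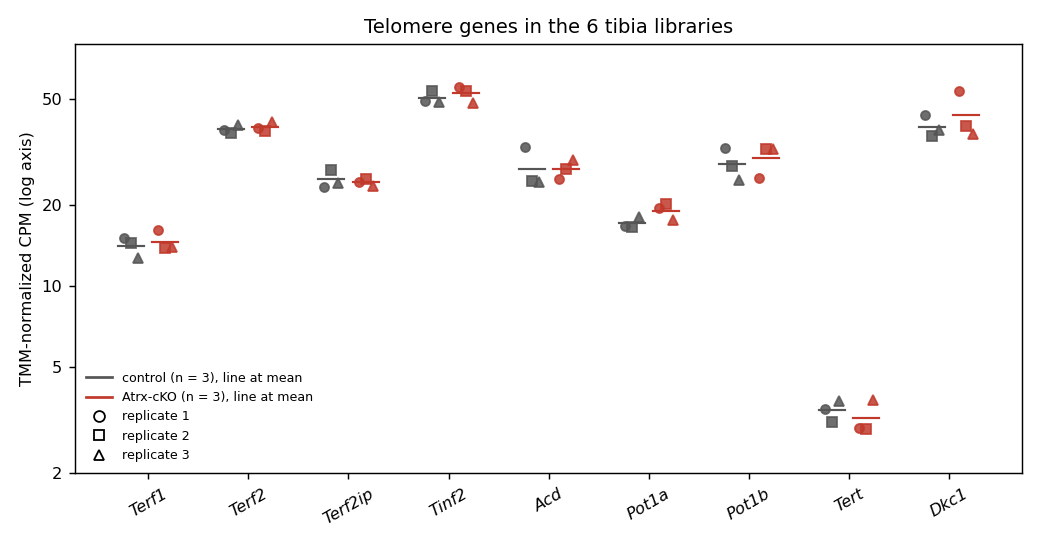
TMM-normalized CPM of the 9 genes on a log axis in control (gray) and Atrx-cKO (red) libraries, with a symbol for each replicate number and a line at the mean of 3. The groups overlap for each gene, and the highest *Dkc1* value, 53.5 CPM, is Atrx-cKO replicate 1.

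Differences between single mice were as large as those between genotypes. The coefficient of variation over the 6 libraries ran from 3.33% for *Terf2* to 15.6% for *Dkc1* with a median of 8.17%, beside 14.5% over all genes tested, many of which are less abundant. *Dkc1* and *Terf1* were highest in Atrx-cKO replicate 1 and next highest in control replicate 1. The summed level of 10 proliferation genes was also highest in those libraries, at 1489 and 1502 CPM, against 1010 to 1218 CPM in the other 4. *Acd* was highest in control replicate 1, as was *Pot1b*. The summed levels of erythroid, neutrophil and B cell markers differed between libraries by up to 2.43, 1.72 and 1.86 times, with overlap between the groups in each. Of the single marker genes, all 8 neutrophil and all 10 proliferation genes had log2 fold changes above 0 (medians 0.19 and 0.12), as did 7 of 8 B cell genes (0.15), 6 of 8 erythroid genes (0.043) and 4 of 8 stem and progenitor genes (0.0028). Among osteoblast and osteocyte genes 9 of 10 were below 0 (-0.23), and among muscle genes 9 of 10 (-1.51). Of all genes tested, 10572 of 20636 were above 0 and 10064 below (median 0.0050). The muscle sum was 2397, 1226 and 702 CPM in Atrx-cKO and 802, 870 and 11866 CPM in control replicates 1, 2 and 3. The high control level of muscle thus came from replicate 3 alone. None of these lists held a gene called by edgeR. Only *Ibsp*, of the osteoblast list, had an unadjusted p under 0.05 (0.0221 in edgeR, log2 fold change -0.51), against 3.64% of all genes tested. Among the marker genes, the Atrx-cKO libraries lay entirely below the controls for *Ibsp* alone, against 4.01% of all genes tested. They lay entirely above for *Ly6g* alone, of the neutrophil list, against 4.30%. The part of cell composition in the values of the 9 genes was not tested.

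**Figure D4:**
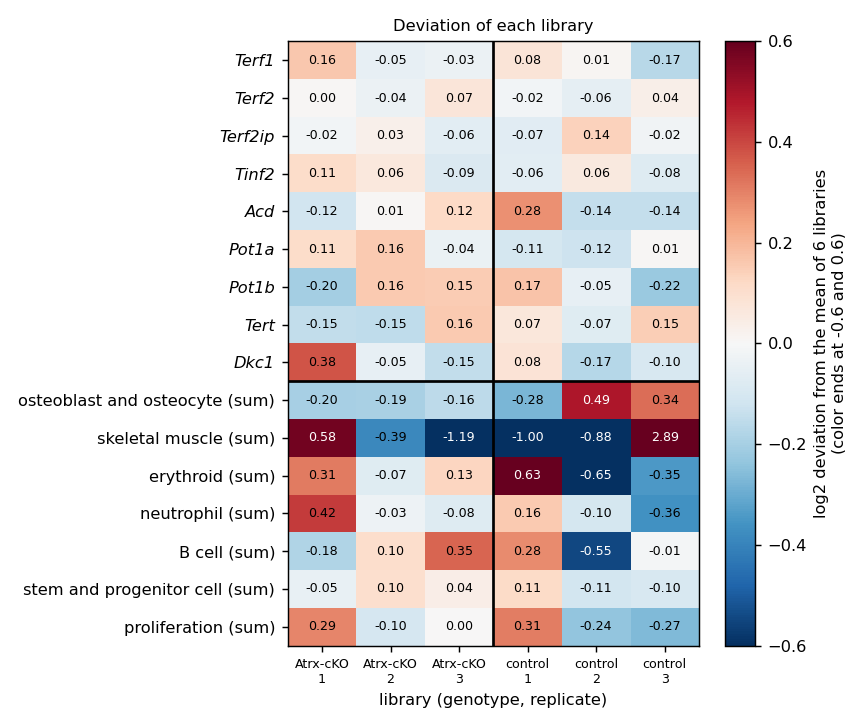
Log2 deviation of each library from the mean of the 6 libraries for the 9 genes (top) and for the summed CPM of 7 marker lists (bottom), with the values printed in the cells. *Dkc1* reaches 0.38 in Atrx-cKO replicate 1, and the skeletal muscle sum reaches 2.89 in control replicate 3, beyond the ends of the color scale.

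For each of the 9 genes, the gene nearest in pattern over the libraries lay outside the 9. Likeness was measured as the root mean square difference, over the 6 libraries, of log2 levels each centered on the mean of its gene. For each of the 9, from 242 to 4517 of the 20635 other genes tested were nearer than the nearest of the other 8. With only 8 genes set against so many over 6 libraries, nearer genes outside the 9 were almost certain. These counts therefore cannot show whether the 9 share a pattern. The nearest pair among them was *Terf2ip* and *Tinf2*, at a difference of 0.067. The nearest genes overall were *Rps21* for *Terf1* (0.017), *Cast* for *Terf2* (0.015), *Mia2* for *Terf2ip* (0.019), *Nckipsd* for *Tinf2* (0.021), *Stat4* for *Acd* (0.024), *Sipa1l1* for *Pot1a* (0.031), *Hist1h2an* for *Pot1b* (0.025), *Msi2* for *Tert* (0.031) and *Asns* for *Dkc1* (0.027).

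Other genes of telomere upkeep likewise did not pass the test for a difference between genotypes. Of the 68 genes tested in 4 lists, none passed at an adjusted p under 0.05 in edgeR, against 0.0145% of all genes tested. None had an unadjusted p under 0.05, against 3.64%. DESeq2 called none of them, and 37 of 23938 genes over all. With so few genes called over all, the lack of calls does not set these lists apart. The log2 fold changes of the 68 were above 0 in 45 and below in 23, with a median of 0.049. Over all genes tested, 10572 of 20636 were above 0, with a median of 0.0050. The 68 were read from the same 6 libraries, so their signs are not independent. In 4 of them the Atrx-cKO libraries lay entirely above the controls, against 4.30% of all genes tested. In none did they lie entirely below, against 4.01%.

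Of 13 genes for telomerase assembly and RNA processing, 12 were tested, all but *Terc*, with log2 fold changes from -0.036 to 0.18 and a median of 0.085. The partners of dyskerin in its RNA-protein particle, *Nop10*, *Nhp2* and *Gar1*, were at 0.089, 0.17 and 0.033. The assembly factors *Naf1* and *Shq1* were at 0.17 and 0.18, and *Naf1* had the lowest unadjusted p of the list at 0.189 in edgeR. *Wrap53*, whose product brings telomerase to Cajal bodies, was at 0.082 (SE 0.10), with 10.4, 10.2 and 10.3 CPM in Atrx-cKO and 9.64, 9.95 and 9.66 CPM in control tibias. The *Wrap53* groups did not overlap, but the difference did not pass (unadjusted p = 0.450 in edgeR).

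The CST complex fills in the strand complementary to the telomerase product. Its subunit genes *Ctc1*, *Stn1* and *Ten1* were at log2 fold changes of -0.026, -0.033 and -0.062. The 17 genes of this complex and of telomere replication had a median of -0.0027, and the lowest unadjusted p was 0.125 for *Timeless* (0.17, SE 0.097). *Rtel1*, whose helicase unwinds telomeric loops, was at 0.16, and the tankyrase genes *Tnks* and *Tnks2* were at 0.025 and -0.044.

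The list of damage signaling and end joining, processes that shelterin holds back at chromosome ends, had 17 of its 18 genes tested, with a median of 0.053. The lowest unadjusted p was that of the kinase gene *Atr*, at 0.110 (log2 fold change 0.17, SE 0.092), and *Atm* was at 0.12. *Mre11a*, *Rad50* and *Nbn*, subunits of 1 nuclease complex, were at 0.15, 0.053 and 0.12. *Mre11a* had 26.7, 25.3 and 26.4 CPM in Atrx-cKO and 25.3, 23.0 and 22.5 CPM in control tibias, without overlap before rounding, and *Nbn* had 22.9, 20.9 and 20.2 CPM against 19.7, 19.6 and 19.6 CPM. Neither difference passed, with unadjusted p values of 0.128 and 0.221 in edgeR.

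The recombination list holds genes used by telomeres that lengthen without telomerase, and all of its 22 genes were tested. Log2 fold changes ran from -0.085 for *Nsmce2* to 0.24 for *Rmi2*, with a median of 0.032. *Rad52*, whose product anneals DNA strands, was at 0.062 and was the gene of this list without overlap between the groups. Its lowest Atrx-cKO value was 14.09 CPM and its highest control value was 14.07 CPM. The *Rad52* difference did not pass (unadjusted p = 0.522 in edgeR). *Pml*, whose nuclear bodies gather telomeres in such cells, was at 0.021, and *Smc6* had the lowest unadjusted p at 0.151 (0.12, SE 0.074). Neither recombination nor telomere length was measured by these libraries.

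**Figure D5:**
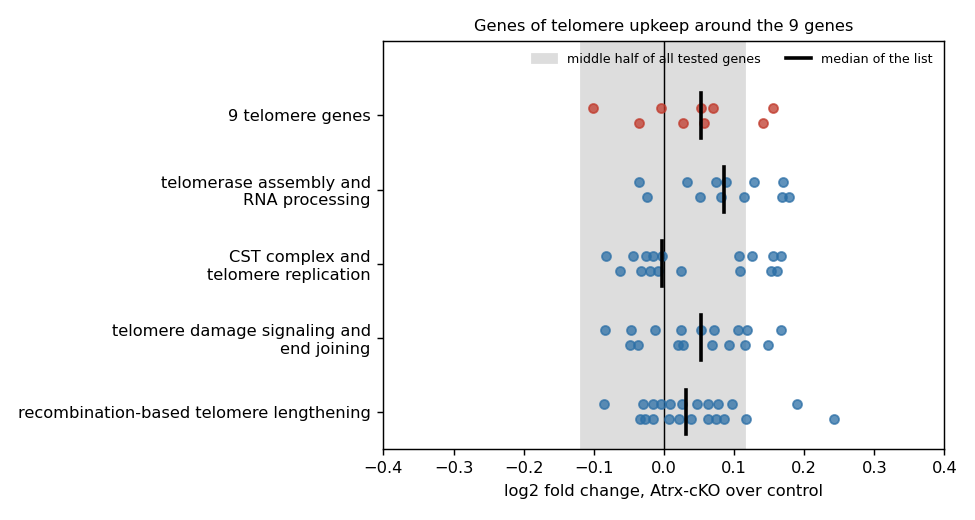
Log2 fold change of Atrx-cKO over control for the 9 genes (red) and for the tested genes of 4 lists of telomere upkeep (blue), each point 1 gene, with a black line at the median of the list and a gray band from -0.12 to 0.12 for the middle of all tested genes. The medians lie between -0.0027 and 0.085, and no gene shown passed the test.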

How the data were processed

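Polyadenylated RNA of tibias from 3 Atrx-cKO and 3 control mice was sequenced as 150-bp paired-end reads by GENEWIZ. For each library the authors deposited raw counts of 55401 Ensembl identifiers and 5 summary entries, and the latter were left out (reads on no feature made up 51.6% to 52.4% of the totals). The submitters' processing notes name GRCm38 and DESeq2; the aligner and the counting program are not given in the sources used here. GENCODE M21 named 55141 identifiers and gave exon lengths. Counts were fitted with edgeR 4.0.16 (TMM, filterByExpr at its defaults, glmQLFit and glmQLFTest on genotype alone, R 4.3.3), and p-values were adjusted over all 20636 genes. Standard errors and 95% intervals came from the fitted coefficient and its quasi-dispersion. CPM used TMM-scaled library sizes. Promoter sequences are from RefSeq. On simulated counts edgeR recovered 81 of 100 genes changed by a log2 of 1 and 99 of 100 changed by 2, with 9 false calls among 20636 genes. The simulation gave genes of like level the same spread and held no smaller changes. It therefore does not measure the power for differences as small as those of the 9 genes. The smallest p of an exact permutation test on 3 and 3 libraries is 0.1, so none was run. Libraries of 1 group differed beyond sampling noise, by a chi-square of 15.8 to 137 for each degree of freedom.

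Genes were grouped by the sample labels. The 9 genes, the lists and the tests were chosen with earlier results of these data known. Genes named are the 9, *Atrx*, genes with overlapping exons, the nearest in pattern, and from the lists the gene with the lowest p. Other genes of the lists were named for their role, for their separated groups or as the ends of a range, after their values were seen. Likeness used log2(CPM + 0.5). Alternatives were RLE, upper quartile and library size scaling, no filter, at least 10 counts in every library, DESeq2 1.42.0, a replicate block and leaving out each library; length by the principal transcript was added after the values were seen.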

Additional observations from a re-analysis of the deposited data

How the results depend on the processing

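None of the 9 genes, and none of the genes in the 4 lists, was called under any of the 13 alternatives set (3 scalings, 2 filters, DESeq2, the replicate block and 6 fits without 1 library). The lowest unadjusted p of any of the 9 was 0.0684 in edgeR, for *Pot1a* with library size scaling, and the lowest adjusted p was 0.674, for *Acd* without control replicate 1. *Tinf2*, *Pot1a* and *Tert* kept the sign of their log2 fold change throughout, at 0.014 to 0.13, 0.11 to 0.23 and -0.23 to -0.029. Signs changed for the other 6, which over the fits without 1 library ran up to 0.11 for *Terf1*, 0.043 for *Terf2*, 0.18 for *Pot1b* and 0.24 for *Dkc1* and down to -0.080 for *Terf2ip* and -0.089 for *Acd*. Library size scaling, which moved the median of all genes to 0.077, put *Terf2ip* at 0.039 and *Acd* at 0.058. Without Atrx-cKO replicate 1, *Terf1* was at -0.022, *Acd* at 0.055 and *Dkc1* at -0.038. Without Atrx-cKO replicate 2, *Pot1b* was at -2.0e-05, and without Atrx-cKO replicate 3, *Terf2* was at -0.0052. Without control replicate 1, *Acd* was at 0.15, without control replicate 2, *Terf2ip* was at 0.027, and without control replicate 3, *Terf1* was at -0.029 and *Pot1b* at -0.032. The cause was not tested.

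Over all genes, edgeR called 3, and 10 without a filter, 1 with at least 10 counts in every library, 37 with DESeq2 and from 0 to 5 in the fits without 1 library. The deviations of libraries that bear the same replicate number correlated at 0.0082, 0.14 and -0.13, and those of different numbers at -0.18 to 0.12. With 3 mice per group, these values cannot decide whether the replicate numbers pair the mice. A fit with the replicate block called 0 genes (977 had an unadjusted p under 0.05) and put *Acd* at 0.0073. At 167 to 221 counts per library, *Tert* has the least depth behind it.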
